A study of Mus musculus with 10 samples.

Results

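The aminoacyl-tRNA synthetase genes were followed in mouse primary hippocampal neuron cultures treated with inhibitors of 2 microRNAs. The members were the protein-coding genes whose symbol is a capital letter followed by ars, ars1 or ars2, together with Eprs, Farsa, Farsb and Tarsl2. This rule found 38 genes among the 48709 in the count tables, and all 38 were among the 16884 genes with enough reads to be tested. By the known location of the enzyme, 19 were cytosolic, 17 were mitochondrial, and 2, Gars and Kars, encode enzymes that serve the cytosol and mitochondria from a single gene. Expression values did not enter the choice.

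All cultures had been kept to day 10 in vitro and received lipid nanoparticles for 48 hours, and the labels name no strain or genotype. In the 2 control libraries the particles carried scramble RNA. In 4 libraries they carried anti-miR-409-5p and in 4 they carried anti-miR-501-3p, each an inhibitor of the microRNA in its name. The controls therefore share the particle and an RNA load with the treated cultures. No untreated culture was analysed here, and the labels do not say whether same-numbered libraries came from the same preparation or from pooled animals. Polyadenylated RNA was read as 50-base single reads, and library totals ran from 22254788 to 32096808 counts. Anti-miR-409-5p library 4 stood apart, with 2103 CPM of a gene annotated as ribosomal RNA against 91.3 to 233.8 CPM in the others.

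Each synthetase joins 1 kind of amino acid to its tRNAs, and the charged tRNAs carry the amino acids to the ribosome. Cytosolic and mitochondrial translation use separate sets of these enzymes, mostly from separate nuclear genes, so that the symbol without a number marks the cytosolic enzyme and the symbol ending in 2 the mitochondrial one. Several cytosolic synthetases are held with scaffold proteins in the multisynthetase complex, while others act outside it. Many cytosolic synthetase genes are targets of the transcription factor Atf4, which is translated more when amino acids run short, and inherited defects in both sets of enzymes cause neurological disease.

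The 2 inhibited microRNAs are shown because their seeds define the sites searched for in the synthetase transcripts. The mature sequences are from RefSeq (GRCm38.p6), written 5′ to 3′ with the seed, bases 2 to 8, in capitals, and they do not share a seed. The first lies at chr12:109743172-109743194 on the plus strand and the second at chrX:7241270-7241291 on the minus strand.
mmu-miR-409-5p: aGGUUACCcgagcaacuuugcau
mmu-miR-501-3p: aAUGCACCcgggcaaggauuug

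A miR-409-5p site (GGTAACC or GTAACCA, on the transcript strand) was found in the annotated 3′ UTR of 1 of the 38 members, 2.63%, against 9.85% of the 14212 tested genes with an annotated 3′ UTR. A miR-501-3p site (GGTGCAT or GTGCATA) was found in 2 of 38, 5.26%, against 13.0% of those genes. The members' 3′ UTRs are shorter, with a median of 584.5 nt against 1219 nt. The gene with miR-409-5p sites was Mars2, the mitochondrial methionyl-tRNA synthetase, which has matches at bases 8160 to 8166 and 9133 to 9139 of its 9470-nt 3′ UTR. The miR-501-3p sites were in Hars2, for histidine, at base 726 of 1433, and in Wars2, for tryptophan, at bases 1687 to 1693 and 3041 to 3047 of 3296. In these stretches of Mars2 and Wars2 the matching bases are in capitals, and the last overlaps a match to the second motif by all but 1 base.
Mars2, first miR-409-5p site: actgaaaacaGGTAACCtgaacatcaa
Mars2, second miR-409-5p site: tttggccacaGTAACCAtatacaataa
Wars2, first miR-501-3p site: ttttggggggGGTGCATgttgttttct
Wars2, second miR-501-3p site: acttgtcagtGGTGCATagtcagttca

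In the promoters, the letters TGATGNAA, the form of element that Atf4 and its C/EBP partners bind, were looked for on both strands from 250 bases before to 50 after the start. They occurred in 5 of the 28 members found in the RefSeq table, 17.9%, against 4.51% of all 27025 genes in it. Mars was matched by its newer symbol, Mars1. The 5 genes were Aars, Gars, Iars, Tars and Yars, which are cytosolic or, for Gars, dual. A 30-base window of each (GRCm38.p6) is shown because the same genes recur in the expression results, each read along its gene with the match in capitals and numbered with the first transcribed base as base 1. A match in capitals is a description of the letters and not a bound site.
Yars, chr4:129189895-129189924, plus strand, bases 4 to 11: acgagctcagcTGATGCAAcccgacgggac
Gars, chr6:55037960-55037989, plus strand, bases -30 to -23: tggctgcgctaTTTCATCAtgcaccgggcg
Aars, chr8:111033840-111033869, plus strand, bases 10 to 17: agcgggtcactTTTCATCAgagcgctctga
Iars, chr13:49682126-49682155, plus strand, bases 8 to 15: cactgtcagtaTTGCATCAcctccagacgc
Tars, chr15:11399655-11399684, minus strand, bases -15 to -8: caggagtcccgTTGCATCAgctggttagct

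Cytosolic synthetase transcripts were the more abundant set in control neurons. Levels of different genes are compared here as CPM, the read count scaled to library size, per kb of the longest coding transcript. On this scale the cytosolic genes had a median of 38.1 and ran from 13.9 for Tarsl2, a second threonyl-tRNA synthetase gene, to 81.6 for Nars, for asparagine. The mitochondrial genes had a median of 6.32 and ran from 2.68 for Mars2 to 14.4 for Rars2, for arginine. Of the dual genes, Gars, for glycine, stood highest of all 38 at 84.8 ± 0.448 CPM per kb (SD, n = 2), and Kars, for lysine, stood at 39.7 ± 1.02. Gars and Nars (81.6 ± 3.56) did not differ beyond their spread, and neither did Aars, Sars and Yars, at 54.7 ± 2.03, 54.5 ± 1.26 and 52.9 ± 2.40. Tarsl2 (13.9 ± 0.352) lay below 2 mitochondrial genes, Rars2 (14.4 ± 0.705) and Lars2 (14.3 ± 3.94), by less than their spread. The order depends on the length used: per kb of all annotated exons, Eprs, whose single protein charges tRNAs with glutamate and with proline, moves from rank 7 to rank 18.

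**Figure D1:**
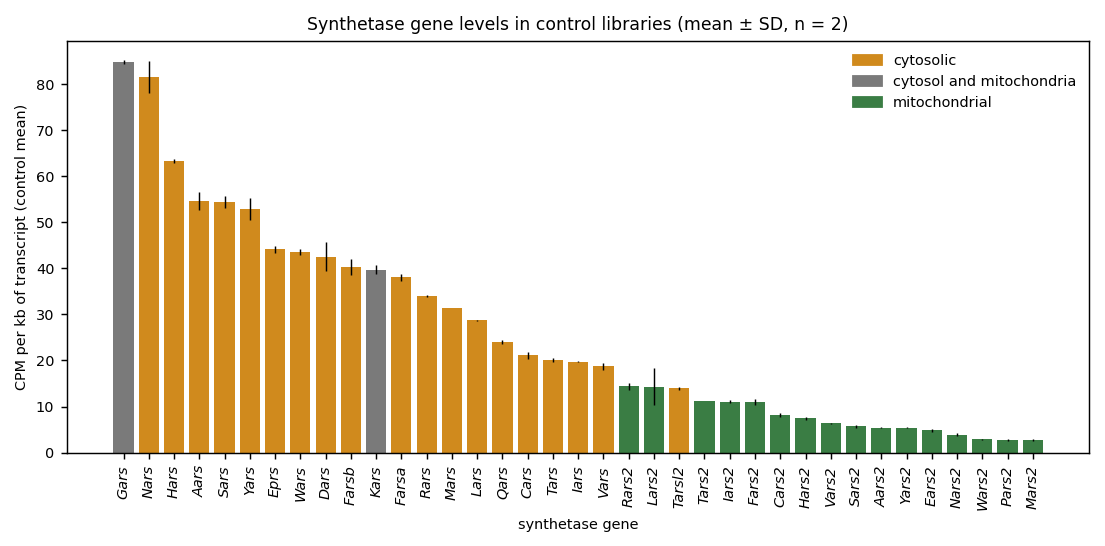
Bars give the mean CPM per kb of transcript of 37 synthetase genes in the 2 control libraries, with the SD as the error bar, coloured by where the enzyme works. Cytosolic and dual genes fill the first 20 places, and the remaining cytosolic gene, Tarsl2, lies within the mitochondrial range, which ends at 2.68 with Mars2.

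Between partners for the same amino acid the cytosolic transcript was always the higher one on this scale, by 1.79 times for Iars over Iars2 (isoleucine) up to 21.1 times for Nars over Nars2, with a smaller margin for the second threonyl gene, Tarsl2, over Tars2. Mars exceeded Mars2 11.7 times, although the 11294-base single-exon Mars2 transcript with its long 3′ UTR makes that gene's value per kb small. How alike the encoded proteins are varied as widely. Translated from the annotated coding sequences, Hars and Hars2 share 68.9% of aligned residues, Tars and Tars2 54.6%, Vars and Vars2 52.1%, Mars and Mars2 29.5%, and Lars and Lars2 23.5%. The closest pair was cytosolic: Tars and Tarsl2 share 71.1%.

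In anti-miR-409-5p cultures, 10 synthetase transcripts changed against control, 9 lower and 1 higher, by edgeR's quasi-likelihood test with Benjamini-Hochberg adjustment over all tested genes at 0.05. Of the 19 cytosolic genes 7 fell and none rose: Aars, Farsa, Mars, Sars, Vars, Wars and Yars. Of the 17 mitochondrial genes Aars2 and Sars2 fell and Mars2 rose, and neither dual gene was called. Over the whole transcriptome 27.8% of tested genes were called, 15.6% higher and 12.2% lower, so 10 of 38 in either direction is near the background, while 36.8% of the cytosolic genes were lower. The median log2 fold change was -0.08 over the cytosolic genes, 0.01 over the mitochondrial ones and -0.01 over all tested genes. The largest fall was Sars2's, by 19.6%, and the calls rest on 2 controls: without control library 1, Mars2 alone remained called, and 7.48% of all tested genes were called. Without anti-miR-409-5p library 4 the members called were 1 higher and 6 lower. In bulk RNA fewer cells of a type and less RNA per cell cannot be told apart.

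In anti-miR-501-3p cultures the same 10 genes were called, each in the same direction, and Dars (higher) and Kars (lower) joined them. The cytosolic count was 7 lower and 1 higher of 19, the mitochondrial count 2 lower and 1 higher of 17, and 1 of the 2 dual genes fell. In this comparison 33.0% of tested genes were called, 17.6% higher and 15.4% lower, against 12 of the 38 synthetases. The median log2 fold change was -0.05 for cytosolic genes, -0.04 for mitochondrial genes and -0.01 for all tested genes. Without control library 1, Mars2 alone was again called, and 10.3% of all tested genes. The comparisons use the same 2 control libraries, so the second is not a repeat of the first.

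Among the cytosolic enzymes outside the multisynthetase complex, Farsa, the alpha subunit of phenylalanyl-tRNA synthetase, fell most by log2 value in the first comparison (ENSMUSG00000003808, chr8:84856989-84869257, plus strand). Its level was 70.5 and 68.6 CPM in the controls, 61.9, 59.9, 55.05 and 56.9 with anti-miR-409-5p, and 61.2, 58.9, 58.7 and 56.2 with anti-miR-501-3p. Every treated library lay below both controls, with changes on the log2 scale of -0.25 ± 0.0501 (SE, edgeR adjusted p = 0.00164) and -0.24 ± 0.05 (edgeR adjusted p = 0.0014). Farsb, the beta subunit of the same enzyme, held 84.5 and 79.4 CPM in the controls against 78.9 to 84.3 and 82.8 to 85.8 in the treated groups, so its groups overlapped (log2 fold changes 0.01 and 0.05, neither called). After the correction for GC content and length given below, Farsa stood at -0.07 and -0.06 and Farsb at -0.05 and -0.03, none of them called.

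Vars, the valyl-tRNA synthetase (ENSMUSG00000007029, chr17:35000987-35016322, plus strand), stood at 79.6 and 75.3 CPM in the controls. With anti-miR-409-5p it stood at 69.8, 71.6, 61.1 and 60.0, and with anti-miR-501-3p at 68.9, 64.5, 61.7 and 60.3. No treated library reached the lower control, and the treated libraries spread more widely than for most cytosolic genes. The log2 fold changes were -0.24 ± 0.0702 (edgeR adjusted p = 0.0215) and -0.28 ± 0.0702 (edgeR adjusted p = 0.00718). The call in the first comparison ended without anti-miR-409-5p library 3, control library 2 or control library 1 (edgeR adjusted p = 0.0626, 0.0557 and 0.246).

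Sars, for serine (ENSMUSG00000068739, chr3:108424865-108445209, minus strand), was the most even of the called genes. Controls held 197.8 and 191.4 CPM, anti-miR-409-5p libraries 172.2, 171.1, 173.3 and 171.2, and anti-miR-501-3p libraries 173.2, 169.6, 172.9 and 174.0. All 8 treated libraries lay between 169.6 and 174.0 CPM, below both controls. It fell by 11.6% and by 11.4% (log2 fold changes -0.18 ± 0.0350 and -0.17 ± 0.0350, edgeR adjusted p = 0.00142 and 0.00119).

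Yars, for tyrosine (ENSMUSG00000028811, chr4:129189760-129219607, plus strand), is 1 of the genes with the Atf4-type letters. It had 158.8 and 148.9 CPM in the controls, 141.6, 134.9, 135.4 and 133.9 with anti-miR-409-5p, and 141.7, 137.9, 143.5 and 137.4 with anti-miR-501-3p. The groups did not overlap, and the log2 fold changes were -0.17 ± 0.0406 and -0.13 ± 0.0406 (edgeR adjusted p = 0.0047 and 0.0163). The second call also ended without anti-miR-501-3p library 2 (edgeR adjusted p = 0.0592).

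Aars, for alanine (ENSMUSG00000031960, chr8:111033144-111057664, plus strand), is another of the genes with these letters. Its controls held 322.6 and 306.1 CPM, the anti-miR-409-5p libraries 294.5, 281.2, 279.0 and 278.6, and the anti-miR-501-3p libraries 289.0, 272.6, 276.1 and 269.3. Every treated library was below both controls, which on the log2 scale is -0.15 ± 0.0401 and -0.18 ± 0.04 (edgeR adjusted p = 0.0104 and 0.00212). Its annotated exons share 1326 bases, 14.3% of their length, with Exosc6 on the same strand, so reads there may come from either gene.

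Wars, for tryptophan (ENSMUSG00000021266, chr12:108860030-108894174, minus strand), was the weakest cytosolic call. It stood at 124.7 and 122.0 CPM in the controls, 118.6, 114.2, 107.7 and 108.7 with anti-miR-409-5p, and 116.0, 113.1, 115.1 and 109.3 with anti-miR-501-3p. The groups did not overlap, but the test was passed narrowly, at log2 values of -0.14 ± 0.0445 and -0.12 ± 0.0445 (edgeR adjusted p = 0.0307 and 0.0427), and DESeq2 did not call the second (adjusted p = 0.0606). The first call ended when either control was left out, without anti-miR-409-5p library 2, 3 or 4 or without anti-miR-501-3p library 2 (edgeR adjusted p of 0.0509 to 0.281). The second ended when either control was left out, without anti-miR-409-5p library 2 or 3 or without anti-miR-501-3p library 2, 3 or 4 (edgeR adjusted p of 0.0525 to 0.323). The other genes with promoter letters did not pass in either comparison: Gars had log2 fold changes of -0.05 and -0.06, Iars of -0.06 and -0.07, and Tars of -0.04 and -0.04.

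The 8 synthetase genes of the multisynthetase complex are Dars, Eprs, Iars, Kars, Lars, Mars, Qars and Rars. Of these, 1 was lower with anti-miR-409-5p, and 2 were lower and 1 higher with anti-miR-501-3p, whereas 6 of the 12 cytosolic genes outside the complex were lower in each comparison. After the correction for GC content and length given below, 2 of the 8 and 0 of the 12 were lower with anti-miR-409-5p. With anti-miR-501-3p, 1 of the 8 and 1 of the 12 were lower. Of all tested genes 2.19% and 3.38% were then lower. The corrected median log2 fold changes were -0.09 and -0.11 in the complex and -0.05 and -0.05 outside it. The difference between these shares was not tested. Mars, the cytosolic methionyl enzyme (ENSMUSG00000040354, chr10:127296221-127311786, minus strand), was lower in both: 93.2 and 93.2 CPM in the controls, 87.1, 85.6, 82.6 and 81.6 with anti-miR-409-5p, and 84.5, 82.0, 84.2 and 78.2 with anti-miR-501-3p. The controls were almost equal and above all treated libraries (log2 fold changes -0.15 ± 0.0440 and -0.18 ± 0.0439, edgeR adjusted p = 0.02 and 0.00437). The first call ended without anti-miR-409-5p library 3 or 4, control library 2 or control library 1, where the edgeR adjusted p was 0.0633, 0.0519, 0.105 and 0.175. Mars exons overlap those of Ddit3 on the opposite strand by 68 bases, and the library kit does not mark strand.

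Kars (ENSMUSG00000031948, chr8:111993443-112011323, minus strand) had 88.5 and 85.3 CPM in the controls, 83.1, 79.9, 82.9 and 80.1 with anti-miR-409-5p, and 76.0, 77.6, 76.6 and 82.3 with anti-miR-501-3p. All treated libraries were below both controls, and only the second difference passed (log2 fold changes -0.09 ± 0.0438 and -0.15 ± 0.0437, edgeR adjusted p = 0.122 and 0.0118). Dars, for aspartate (ENSMUSG00000026356, chr1:128363707-128417368, minus strand), went the other way. It had 87.8 and 97.5 CPM in the controls, 96.9, 100.2, 107.1 and 99.7 with anti-miR-409-5p, and 102.0, 109.8, 105.5 and 107.9 with anti-miR-501-3p. The anti-miR-409-5p group overlapped the controls by 1 library and was not called (log2 fold change 0.12 ± 0.0507, edgeR adjusted p = 0.0798; 0.0255 without control library 2 and 0.0366 without anti-miR-409-5p library 1), while the anti-miR-501-3p group lay above them (0.20 ± 0.0507, edgeR adjusted p = 0.00633). With the replicate number as a block, Dars and Kars were also called with anti-miR-409-5p (log2 fold changes 0.10 and -0.11, adjusted p = 0.0443 and 0.0477), as was Rars (-0.11, adjusted p = 0.0389), and Wars was no longer called with anti-miR-501-3p (adjusted p = 0.0545).

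The remaining cytosolic and dual genes passed in neither comparison. Nars, the most abundant cytosolic gene per kb, was level: 230.9 and 217.1 CPM in the controls, 226.9, 228.8, 229.1 and 231.7 with anti-miR-409-5p, and 224.0, 225.2, 234.2 and 229.5 with anti-miR-501-3p. Its groups overlapped. Gars had 201.0 and 202.5 CPM in the controls, 198.5, 190.3, 195.8 and 194.2 with anti-miR-409-5p, and 190.4, 194.8, 195.1 and 194.4 with anti-miR-501-3p. Every treated library was below both controls, but the difference was -3.51% and -4.02% and was not called (edgeR adjusted p = 0.299 and 0.216). Tarsl2, the least abundant per kb, had 45.2 and 43.7 CPM in the controls and 43.2 to 44.8 and 41.8 to 46.5 CPM in the treated groups, which overlapped. In all, 11 cytosolic genes lay below both controls in every anti-miR-409-5p library and none above, where 24.0% and 24.1% of all tested genes did so. With anti-miR-501-3p the counts were 10 below and 1 above, where 25.6% and 24.3% of tested genes did so.

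**Figure D2:**
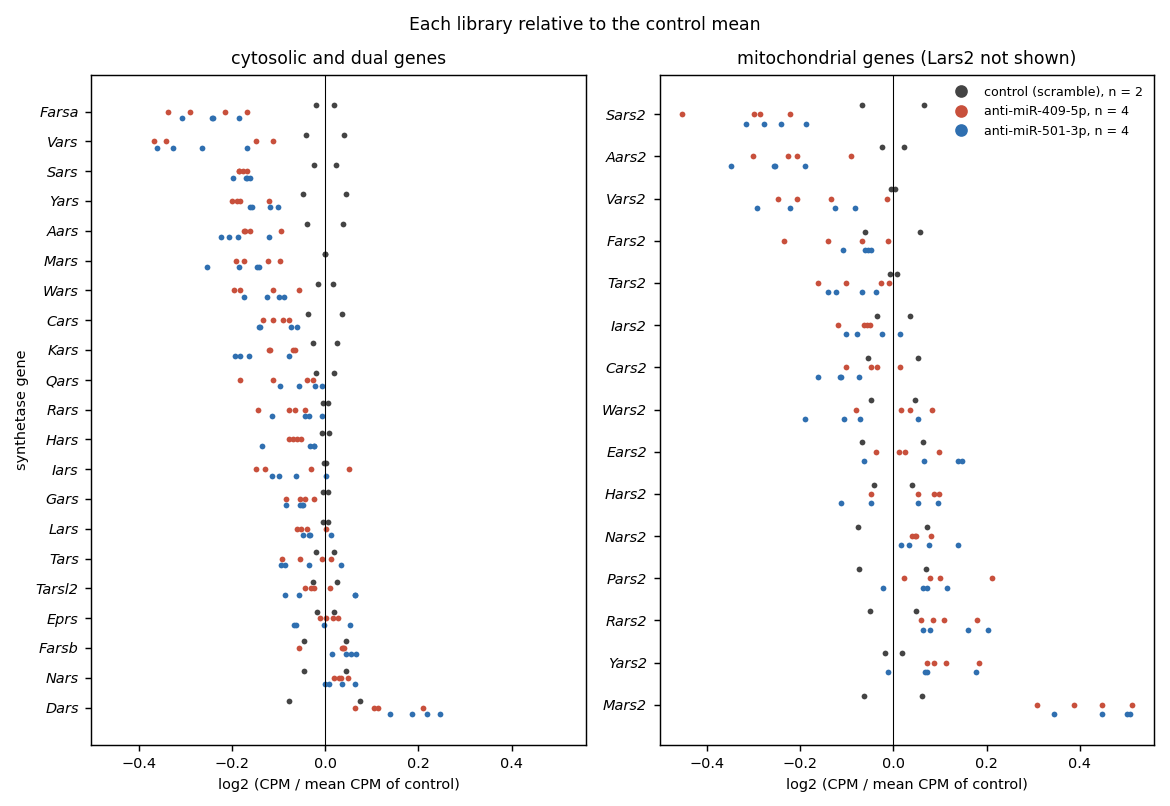
Each point is 1 library, placed by the log2 of its CPM over the control mean (x axis) for the synthetase genes shown (y axis), with Lars2 left out. Farsa, Vars, Sars, Yars, Aars, Mars and Wars have all 8 treated libraries below both controls, and Mars2 has all 8 above.

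Among the mitochondrial enzymes, Mars2 had the largest called change of all 38 genes (ENSMUSG00000046994, chr1:55237177-55248470, plus strand). It held 29.0 and 31.6 CPM in the controls, 37.5, 39.7, 41.3 and 43.2 with anti-miR-409-5p, and 38.5, 41.3, 43.1 and 42.9 with anti-miR-501-3p. All treated libraries were above the higher control, and the level rose by 33.4% and 36.7% (log2 fold changes 0.42 ± 0.0641 and 0.45 ± 0.0640, edgeR adjusted p = 0.000232 and 7.1e-05). The sites printed for this gene match miR-409-5p, and the level rose with the other inhibitor too (log2 difference between the inhibitors -0.04 ± 0.0505, edgeR adjusted p = 0.939). Wars2 and Hars2, the genes with miR-501-3p sites, had log2 fold changes of -0.08 ± 0.0791 and -0.0012 ± 0.0668 with anti-miR-501-3p, and neither was called.

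Aars2, for alanine (ENSMUSG00000023938, chr17:45506841-45520843, plus strand), fell like its cytosolic partner. It had 18.4 and 17.8 CPM in the controls, 17.0, 14.7, 15.5 and 15.7 with anti-miR-409-5p, and 14.2, 15.9, 15.2 and 15.2 with anti-miR-501-3p. The groups did not overlap (log2 fold changes -0.20 ± 0.0714 and -0.26 ± 0.0714, edgeR adjusted p = 0.0394 and 0.00939). The first call is weak: DESeq2 gave an adjusted p of 0.0736, and it ended when either control was left out, without anti-miR-409-5p library 2, 3 or 4 or without anti-miR-501-3p library 2, 3 or 4 (edgeR adjusted p of 0.0509 to 0.284).

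Sars2, for serine (ENSMUSG00000070699, chr7:28741992-28753871, plus strand), also fell with its partner. It had 11.2 and 10.2 CPM in the controls, 9.16, 8.67, 8.76 and 7.80 with anti-miR-409-5p, and 8.58, 9.03, 9.37 and 8.81 with anti-miR-501-3p. The groups did not overlap (log2 fold changes -0.32 ± 0.0840 and -0.25 ± 0.0835, edgeR adjusted p = 0.0102 and 0.0253). DESeq2 did not call the second (adjusted p = 0.0646), which also ended without anti-miR-501-3p library 2 or 4 (adjusted p = 0.0515 and 0.055). Without correction, alanine and serine were the amino acids whose cytosolic and mitochondrial enzyme transcripts both fell, while the methionyl pair moved in opposite directions. After the correction for GC content and length given below, Mars stood at -0.05 and -0.08 and Mars2 at -0.06 and -0.07. Aars2 then stood at -0.03 and -0.06 and Sars2 at -0.09 and -0.01, and none of these values was called.

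The other 14 mitochondrial genes were not called in either comparison. Rars2, the most abundant of them per kb, had 25.9 and 27.8 CPM in the controls, 28.0, 28.5, 30.4 and 28.9 with anti-miR-409-5p, and 28.0, 28.3, 30.9 and 29.97 with anti-miR-501-3p. All treated libraries lay above both controls, by log2 values of 0.11 and 0.13 that did not pass (edgeR adjusted p = 0.195 and 0.112). Vars2, for valine, lay at -0.15 ± 0.0704 and -0.18 ± 0.0703 (edgeR adjusted p = 0.128 and 0.0578), and it was called without anti-miR-409-5p library 1 in each comparison (0.0425 and 0.044) and in the second also without anti-miR-409-5p library 4 or anti-miR-501-3p library 1 or 3 (0.0407 to 0.049). Leaving Lars2 aside, the summed level of the mitochondrial genes was 362.3 ± 5.65 CPM in control (SD, n = 2), 362.2 ± 3.45 with anti-miR-409-5p (SD, n = 4) and 362.4 ± 7.78 with anti-miR-501-3p (SD, n = 4), which does not differ beyond the spread. The cytosolic sum was 2301 ± 46.4, 2176 ± 24.4 and 2178 ± 15.3 CPM in the same order, so it fell by 5.46% and fell by 5.37%. Dual genes summed to 288.7 ± 1.17, 276.2 ± 5.01 and 271.8 ± 4.2 CPM.

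**Figure D3:**
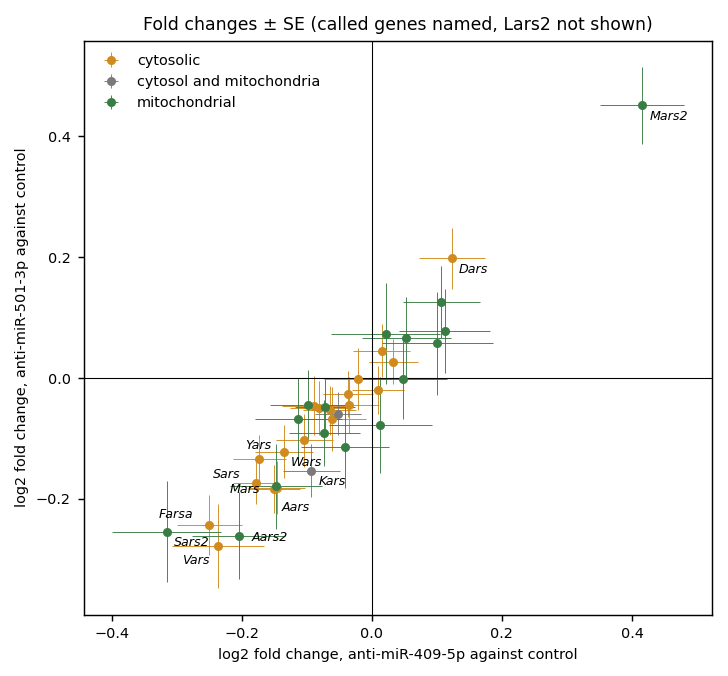
Each point is 1 synthetase gene, placed by its log2 fold change against control with anti-miR-409-5p (x axis) and with anti-miR-501-3p (y axis), with the SE as bars, Lars2 left out, and called genes named. The axes share the 2 control libraries, and Mars2 stands apart at 0.42 and 0.45.

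Lars2, the mitochondrial leucyl-tRNA synthetase (ENSMUSG00000035202, chr9:123366927-123462666, plus strand), was read very unevenly. It had 44.9 and 66.6 CPM in the controls, 52.8, 52.1, 55.8 and 464.0 with anti-miR-409-5p, and 85.5, 41.7, 89.2 and 49.4 with anti-miR-501-3p. Anti-miR-409-5p library 4 alone raised the summed mitochondrial level of its group to 518.4 ± 203 CPM (SD, n = 4). The log2 fold change of 1.496 ± 1.11 was not called (edgeR adjusted p = 0.367), and it was -0.06 ± 0.383 without that library. A gene annotated as ribosomal RNA on chromosome 17, CT010467.1, had 91.3 and 122.9 CPM in the controls, 108.4, 109.9, 123.4 and 2103 with anti-miR-409-5p, and 233.8, 97.2, 142.1 and 145.8 with anti-miR-501-3p. It was high in the same library, as were Gm15564, Gm26917, Gm23935 and Mir6236, and these 5 noncoding genes were chosen after their values were seen. Whether reads from ribosomal RNA were counted under Lars2 was not tested.

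**Figure D4:**
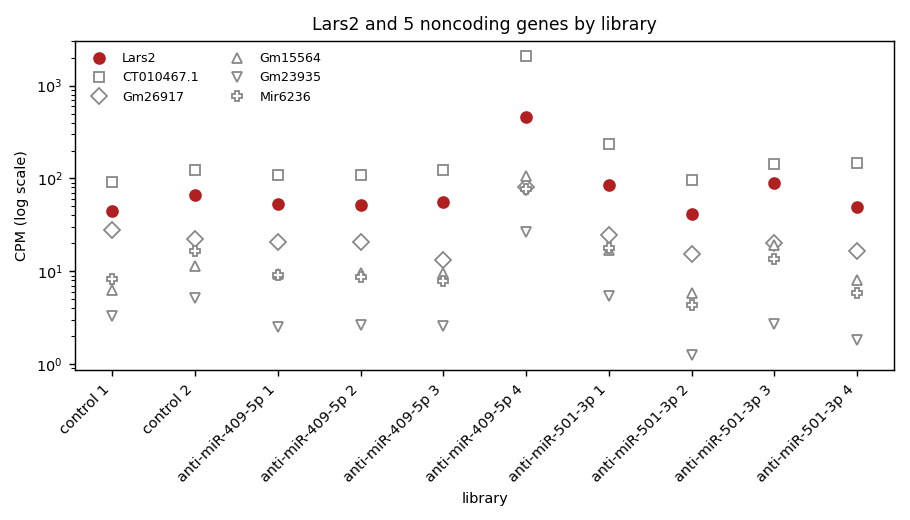
Points give the CPM (log axis) of Lars2, filled, and of 5 noncoding genes, open, in each of the 10 libraries. All 6 genes are highest in anti-miR-409-5p library 4, where Lars2 reached 464.0 CPM.

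Between the inhibitors no synthetase gene was called. Over all 16884 tested genes 0 were called, 0%, by edgeR's adjusted p, with 992 genes but none of the 38 at an unadjusted p under 0.05, and DESeq2 called 3 genes, none a synthetase. Apart from Lars2, the log2 differences ran from -0.08 (Dars, ± 0.0411 SE) to 0.09 (Wars2, ± 0.0651). The genes called in a single comparison with control, Dars and Kars, differed between the inhibitors by -0.08 ± 0.0411 and 0.06 ± 0.0361 (edgeR adjusted p = 0.871 and 0.872). These errors bound the differences but do not show that the inhibitors act alike. With the replicate number as a block, 252 of all tested genes and 0 members were called.

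Base composition moved with these results. Transcript GC content was a median 56.4% in the 9 lower genes of the anti-miR-409-5p comparison (52.8% to 60.9%) and 55.1% in the 10 of the anti-miR-501-3p comparison (51.4% to 60.9%), but 38.8% in Mars2 and 41.2% in Dars, with 49.8% the median of all tested genes. Across the 37 members other than Lars2, GC content and log2 fold change had Spearman correlations of -0.75 and -0.77, given as a description across genes of the same libraries. The same held for the whole table, where genes that rose had a median GC content of 42.6% in each comparison and genes that fell 57.0% and 56.8%. The libraries differed in this respect: the slope of log2 CPM on GC content, relative to the mean of all libraries and per 10 percentage points, was 0.27 and 0.20 in the controls and between -0.13 and 0.04 in the 8 treated libraries. Among genes under 45% GC, 49.5% of all tested genes were higher with anti-miR-409-5p, as was 1 of 4 synthetases, and at 55% or more 37.3% of all tested genes were lower, against 5 of 9 synthetases. With anti-miR-501-3p these shares were 54.9% (2 of 4) and 45.5% (5 of 9). Between 45% and 50% GC, 14 synthetases had a median log2 fold change of -0.03 and -0.04, against 0.05 for all tested genes in each comparison. Between 50% and 55% GC, 4 of 11 synthetases were lower with anti-miR-409-5p, against 11.2% of all tested genes. With anti-miR-501-3p 5 of 11 were lower there, against 16% of all tested genes.

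**Figure D5:**
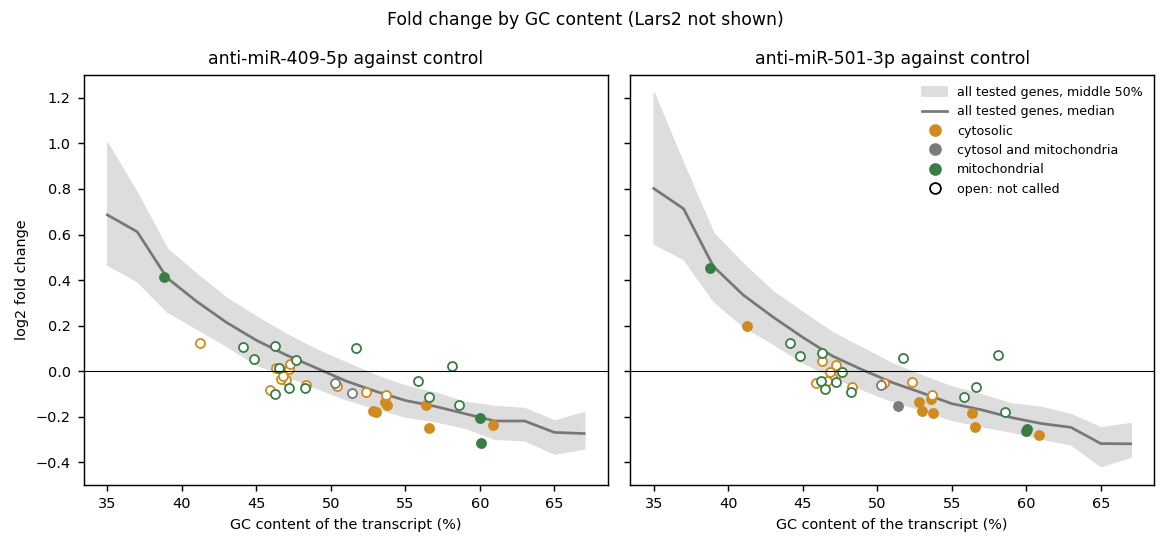
Points are synthetase genes, filled where called, by transcript GC content (x axis) and log2 fold change against control (y axis), with the median and middle 50% of all tested genes in 2-point bins of GC content as line and band. Mars2 lies within the band in both panels, while Dars, called higher in the right panel, lies below the band there. Of the lower genes, 4 of the 9 (left) and 4 of the 10 (right) lie below the band. The lower genes were picked by these same fold changes, so their place below the band is not a test. Cytosolic genes between 45% and 50% GC lie below the median line, some within the band and some below it.

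When each library was corrected for GC content and transcript length, none of the called synthetases still passed in the comparison where it had been called. Mars2 had corrected log2 fold changes of -0.06 and -0.07, and Sars of -0.10 and -0.08 (edgeR adjusted p = 0.0514 and 0.0916). Other genes passed then: Iars2 and Rars were lower in both comparisons, Dars was lower with anti-miR-409-5p, and with anti-miR-501-3p Tars was lower and Ears2 higher. In the corrected fits 5.38% and 8.02% of all tested genes were called, beside 4 of the 38 synthetases in each. Rars, for arginine, stood at -0.16 ± 0.0386 and -0.14 ± 0.0385 on the corrected log2 scale (edgeR adjusted p = 0.0137 and 0.0207), and its uncorrected level was 72.1 and 71.6 CPM in the controls against 65.0, 68.1, 68.6 and 69.7 and then 69.7, 66.4, 70.1 and 71.5 in the treated groups, all below the controls. Iars2, the mitochondrial isoleucyl enzyme, had corrected values of -0.16 ± 0.0395 and -0.13 ± 0.0394 (edgeR adjusted p = 0.0148 and 0.0337), and 22.9% of its exon length overlaps Rab3gap2 on the opposite strand. With the replicate number also as a block, 8 and 6 members passed, all lower, where 5.87% and 8.65% of all tested genes were called. Of the genes called without correction, these held Sars in both comparisons and Yars in the first. What lies behind the difference in GC slope was not tested.

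After the GC and length correction alone, most cytosolic genes had negative values. Under anti-miR-409-5p 19 of 19 had a negative corrected log2 fold change, and under anti-miR-501-3p 18 of 19 did, the exception being Qars at 0.03, while 50.5% and 50% of all tested genes were negative. Uncorrected, 15 and 16 of the 19 were negative: Dars, Farsb and Nars turned negative in both comparisons and Eprs in the first, and Qars turned positive in the second. The medians were -0.07 and -0.06, against 0.00 for all tested genes in each, and -0.01 and -0.02 for the mitochondrial class. Without control library 1 the negative counts were 16 and 15 of 19, and without control library 2 they were 19 and 17. With 1 control left out in this way no more than 2 of the 38 members passed the test in any of these fits. The lowest corrected cytosolic value was -0.16, for Rars in the first comparison, and both comparisons rest on the same controls.

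The scaffold and partner genes of the multisynthetase complex were mixed. Of the 3, Eef1e1 rose (30.4 ± 1.33 CPM in control, SD, n = 2; 34.8 ± 2.61 and 35.9 ± 1.24 with the inhibitors, n = 4 each; log2 fold changes 0.19 and 0.24, edgeR adjusted p = 0.0308 and 0.00832). Aimp1 fell (log2 fold change -0.19 in each, edgeR adjusted p = 0.0205 and 0.0206), and Aimp2, at -0.13 and -0.08, did not pass. Of 10 further charging and proofreading genes, 1 rose and 2 fell with anti-miR-409-5p and 1 rose with anti-miR-501-3p. The gene that rose in each was Prorsd1, which is related to a prolyl-tRNA editing domain and was expressed at only 1.53 ± 0.346 CPM in control (log2 fold changes 0.60 and 0.63). Gatb, a subunit of the amidotransferase that makes mitochondrial glutaminyl-tRNA, and Dtd1, a D-aminoacyl-tRNA deacylase, fell with anti-miR-409-5p by 0.21 and 0.14 on the log2 scale. After the correction for GC content and length, 0 genes of either list were called, and Eef1e1 stood at 0.04 and 0.07 (edgeR adjusted p = 0.773 and 0.521).

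Cytosolic elongation factors, which bring charged tRNAs to the ribosome and move it along, were lower in 4 of 6 cases in each comparison and higher in none, where 12.2% and 15.4% of all tested genes were lower. Eef1a2, the neuronal form of the tRNA carrier, fell from 365.4 ± 16.3 CPM (SD, n = 2) to 322.9 ± 6.50 and 317.5 ± 6.57 (n = 4 each; log2 fold changes -0.18 and -0.20). Eef2, the translocase, fell from 1342 ± 17.0 to 1207 ± 19.1 and 1214 ± 28.7 CPM (log2 fold changes -0.15 and -0.14). Eef1a1, which has many near-identical pseudogenes and is uncertain for that reason, lay at -0.10 and -0.09 (edgeR adjusted p = 0.0477 and 0.0492), and it passed again after the correction for GC content, at -0.12 and -0.13 (edgeR adjusted p = 0.0141 and 0.00511), as did Eef1b2, a subunit of its exchange factor, at -0.15 and -0.17. Eef1a2 and Eef2 did not pass after it. Of 9 mitochondrial translation factors only Mtif2, an initiation factor, was called, higher in each comparison (log2 fold changes 0.16 and 0.19), and after the correction it stood at 0.01 and 0.02 (edgeR adjusted p = 0.956 and 0.83).

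Of 29 genes of the amino acid response linked to Atf4, 2 rose and 9 fell with anti-miR-409-5p, and 2 rose and 11 fell with anti-miR-501-3p. Of all tested genes 15.6% rose and 12.2% fell in the first comparison, and 17.6% rose and 15.4% fell in the second. The list had medians of -0.151 and -0.145 on the log2 scale against -0.01 for all tested genes. Atf4 itself fell from 188.3 ± 6.55 CPM (SD, n = 2) to 166.6 ± 5.61 and 169.2 ± 6.01 (n = 4 each; log2 fold changes -0.18 and -0.15, edgeR adjusted p = 0.00595 and 0.0106). Atf5, a related factor, had log2 fold changes of -0.28 and -0.23. Cebpg, a dimer partner of Atf4, rose by 0.29 in each comparison, and Vldlr, a lipoprotein receptor, by 0.14 and 0.20. After the correction for GC content, 0 of these genes were higher and 1 lower with anti-miR-409-5p, and 1 was higher and 2 were lower with anti-miR-501-3p, beside 5.38% and 8.02% of all tested genes called in either direction. Named after their values were seen, these were Eif4ebp1, an inhibitor of cap-dependent translation (-0.33 and -0.31), and, with anti-miR-501-3p alone, the amino acid transporter gene Slc7a3 (-0.49) and Ddit4, an inhibitor of mTORC1 signalling (0.16). Atf4 then had values of -0.03 and -0.0048.

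In the authors' deposited table for anti-miR-409-5p against control, 8 synthetases carried an adjusted p under 0.05, 1 higher and 7 lower, and 1 member carried none. All 8 were among the 10 called here, and Aars2 and Wars were called here only. In the authors' deposited table for anti-miR-501-3p, 2 were higher and 8 lower, all among the 12 called here, with Sars2 and Wars called here only.

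The cultures hold other cells besides neurons. All 5 of 5 neuronal markers were read, with a summed level of 4736 to 4863 CPM in control, 5164 to 5574 with anti-miR-409-5p and 5034 to 5513 with anti-miR-501-3p, higher in every treated library. The 6 astrocyte markers summed to 1738 to 1769, 1804 to 1848 and 1755 to 1792 CPM, and the 7 oligodendrocyte-lineage markers to 451.9 to 623.8, 414.6 to 513.2 and 349.7 to 491.7. For the astrocyte markers, all anti-miR-409-5p libraries were above both controls. The 4 endothelial markers summed to 12.95 to 15.67 CPM in control, 14.6 to 16.7 with anti-miR-409-5p and 17.25 to 19.8 with anti-miR-501-3p, so all anti-miR-501-3p libraries were above both controls. In the same order the 5 microglial markers summed to 15.05 to 15.8, 13.4 to 15.02 and 14.3 to 17.9 CPM, the 6 mural and fibroblast markers to 239.8 to 339.5, 220.6 to 289.4 and 278.3 to 344.2, and the 3 markers of proliferating cells to 69.55 to 105, 84.8 to 110.7 and 58.45 to 95.01, and no marker on any list was at 0 in all libraries. For the microglial markers, all anti-miR-409-5p libraries were below both controls, by a narrow margin. The part of these differences in the synthetase results was not tested.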

How the data were processed

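RNA-seq libraries of mouse hippocampal neuron cultures were grouped by their titles (control 2, anti-miR-409-5p 4, anti-miR-501-3p 4). The authors deposited raw counts per Ensembl gene. STAR 2.5.2b, Subread 1.5.1 with featureCounts, FastQC 0.11.5 and build mm10 are named, without their settings, per the submitters' processing notes; annotation release, strand setting and treatment of reads with several matches are not given in the sources used here, so reads of overlapping genes may be split. The authors' deposited comparison tables give log2 fold changes, adjusted p-values and a normalized count signal per library, and were used only where named.

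Here, edgeR 4.0.16 (R 4.3.3; filterByExpr, TMM, robust quasi-likelihood test, 3 groups in 1 fit) was run over all 16884 genes with a two-sided Benjamini-Hochberg adjusted p under 0.05. CPM is scaled by TMM. Symbols, transcripts, GC content and coordinates are from GENCODE M21 (GRCm38, the same assembly as mm10); promoters and microRNAs are from RefSeq (GRCm38.p6). The GC and length correction fitted natural splines (5 df each) per library to genes above a mean log2 CPM of 1 (prior count 2) and entered them as offsets. Alternatives were other scalings, no filter, DESeq2 1.42.0, a surrogate variable (sva 3.50.0), fits of 2 groups, a replicate block and leaving out each library. Only the main edgeR fit was tested on simulated counts, for anti-miR-409-5p against control and with the same spread setting for all genes. The simulation held no difference in GC slope between libraries, and the alternatives were not simulated. Nothing in the labels says that libraries came from separate cultures, so the p-values reflect only how these libraries vary, which may be technical. Pairs within a group differed by more than sampling noise (chi-square per degree of freedom 1.65 to 12.0). CPM precision also rests on depth: 3 counts equal 0.0951 to 0.136 CPM.

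Replicate numbers come from the titles. Deviations from the group means of same-numbered libraries correlated at 0.375, 0.164, 0.121 and 0.306 between the inhibitors. All were above 0.1, and the numbers were taken to pair those libraries in the replicate block only. The main fit did not use them. Different-numbered pairs between the inhibitors ran from -0.333 to 0.177, so 0.164 and 0.121 do not set their pairs apart. Same-numbered libraries against control, with 2 pairs each, correlated at 0.293 and 0.0423, and at 0.359 and 0.211. The 2 controls deviate from their mean by equal and opposite amounts, so the 2 values of each inhibitor are not separate checks.

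Values per library are printed for every called member and for the highest and lowest gene per kb of each class. Tarsl2 is the exception, with its treated groups given as ranges. Called genes of smallest p in each related list are given by group mean or log2 fold change. Other genes (such as Lars2, Farsb, Rars, Iars2 and Vars2), and the mitochondrial sum without Lars2, were added after their values were seen. The members and lists were chosen with earlier results of these data known. Some items are not reported here.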

Additional observations from a re-analysis of the deposited data

Results flagged for a closer look

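In 76 groups of 4 libraries (38 genes in 2 inhibitor groups), 5 held a library whose distance from the nearest other one exceeded 0.829 of the group's range; chance gives about 1 in 20. Lars2 had 464.0 CPM in anti-miR-409-5p library 4 against 52.1 to 55.8 CPM in the other 3. Farsb had 78.9 CPM in the same library against 84.1 to 84.3. Aars had 294.5 CPM in anti-miR-409-5p library 1 against 278.6 to 281.2, nearer the controls than the rest of its group. In anti-miR-501-3p library 1, Hars had 114.7 CPM against 123.2 to 124.0 and Gars 190.4 CPM against 194.4 to 195.1.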

How the results depend on the processing

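The calls rest on 2 controls and move with GC content. The 7 cytosolic calls with anti-miR-409-5p became 2 with the GC and length correction, neither of them among the 7, and 1 with a surrogate variable; leaving out single libraries gave 0 (without control library 1; 4 without anti-miR-409-5p library 3) to 8. The mitochondrial count of 3 became 1 with the surrogate variable and 1 to 4 without single libraries. With anti-miR-501-3p, 8 cytosolic calls became 2 with the correction, 5 with the correction and replicate block together, 1 with the surrogate variable and 0 to 8 without single libraries, and 3 mitochondrial calls became 1 with correction and block, 0 with the surrogate variable and 1 to 4 without single libraries. In an alternative chosen after seeing the data, the correction without 1 control left 0 or 1 of each class in each comparison with control. The replicate block gave 9 and 3 calls (cytosolic and mitochondrial) with anti-miR-409-5p and 7 and 3 with anti-miR-501-3p, and changed no other calls than those named. Block and correction together called 8 members with anti-miR-409-5p, all lower, and kept Sars and Yars of the genes called without correction. With anti-miR-501-3p they called 6 members, all lower, and kept Sars. Direct differences between the inhibitors stayed at 0 called members under every alternative. Scaling by the upper quartile or total counts shifted the median log2 fold change of all genes to -0.05 to -0.06, raised member calls to 13 and 14 (anti-miR-409-5p) and 15 and 15, and gave a control cytosolic sum of 2354 or 2362 CPM and an anti-miR-501-3p sum of 2160 CPM with total counts. With the correction 4 cytosolic genes changed sign in each comparison, and with anti-miR-409-5p 5 mitochondrial genes turned negative and 3 positive (4 and 2 with anti-miR-501-3p). Among the genes called in a comparison, signs turned with the correction, and with the correction and block, for Dars (-0.14 and -0.12 with anti-miR-409-5p, -0.11 and -0.0927 with anti-miR-501-3p) and Mars2 (-0.0567 and -0.0469, then -0.071 and -0.0623), and for Wars with both (0.000838 with anti-miR-501-3p). The causes were not tested.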
